A study of Mus musculus with 8 samples.

Results

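The erythroid genes described here are Slc4a1, Rhag, Alas2, Ahsp, Klf1, Gata1 and Epor, 7 genes whose products build, or control the building of, red blood cells. They were picked by symbol, with their levels in these same liver libraries known, as genes of interest in the regenerating organ. Of the 7, 6 had values here, out of 34465 genes in all, and Ahsp is not analysed here. Because the hepatectomy and sham values of these genes took part in choosing them, that comparison is given for them as a description, with no test. Tests were made of genotype and of the other genes of red cell formation.

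Red cell formation starts when erythropoietin, a hormone made mainly in the kidney of the adult, acts on the receptor Epor of committed progenitors. The transcription factors Gata1 and Klf1 then switch on genes of heme synthesis, the globin chains and the proteins of the red cell membrane. In the fetus the liver is the main site of this process, which in the adult mouse takes place in bone marrow and spleen.

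Whole liver RNA was sequenced in 8 libraries, 2 for each of 4 groups, from mice of strain 129S4/SvJae/FVB aged 3 months. Every mouse carried b-PDGFR fl/fl, floxed alleles of Pdgfrb, the receptor beta of platelet-derived growth factor. The groups were Cre-positive hepatectomy, Cre-negative hepatectomy, Cre-positive sham and Cre-negative sham, where Cre was expressed from the GFAP promoter and the hepatectomy livers were taken 72 h after part of the organ was removed. Nothing in the labels ties a library to an animal of its own, so p-values measure the spread between these samples, which may be technical. The labels describe the deletion as restricted to hepatic stellate cells, the pericytes of the liver sinusoid. The genotype difference of Pdgfrb did not pass the test: its signal was 63.1 and 99.9 in Cre-positive and 122.6 and 70.5 in Cre-negative hepatectomy livers, and 59.4 and 46.0 in Cre-positive and 49.8 and 63.3 in Cre-negative sham livers (log2 fold change for genotype -0.23, adjusted p = 0.769 after hepatectomy, and -0.10, adjusted p = 1, in sham, by limma). Other liver cells express Pdgfrb too, so these whole-organ values do not measure the deletion in stellate cells.

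Values are the deposited normalized signal per gene. The depth behind them is unknown, and the sources used here do not say whether they are per unit of transcript length, so levels of genes were not ranked against each other, and sums over a list serve only to compare libraries. An exact 0 is not always an absence of signal: Alb, for albumin, was listed at 0 in all libraries except Cre-negative hepatectomy replicate 1, while the hepatocyte genes Ttr and Apoa1 were at 27636 or more in every library. Cre-positive hepatectomy replicate 1 stood apart for erythroid genes. It was the lowest of the 4 hepatectomy libraries for 41 of 73 other erythroid genes tested (56.2%), against 37.4% of all genes tested, and many results below are given with and without it.

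Slc4a1 encodes band 3, the anion exchanger and main integral protein of the red cell membrane. Its signal was 4.14 and 40.2 in the Cre-positive hepatectomy livers and 33.6 and 27.8 in the Cre-negative hepatectomy livers, against 0.551 and 1.68 in Cre-positive and 0.487 and 1.42 in Cre-negative sham livers. All 4 hepatectomy libraries lay above all 4 sham libraries, and Cre-positive replicate 1 lay far below the other hepatectomy libraries. Group means were 22.2 ± 25.5 and 30.7 ± 4.1 after hepatectomy in Cre-positive and Cre-negative livers, and 1.11 ± 0.795 and 0.955 ± 0.661 after sham operation (SD, n = 2 each). On the log2(signal + 1) scale, which understates changes of low genes, the fold change of hepatectomy over sham averaged over genotypes was 3.45 (SE 0.64), and it was 4.2 without Cre-positive hepatectomy replicate 1. In whole liver, more or fewer cells of a type and more or less RNA per cell cannot be told apart, here and in all that follows.

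Rhag encodes the Rh-associated glycoprotein, a gas and ammonium channel that sits with band 3 in the red cell membrane. It was at 2.76 and 1.22 in the Cre-negative hepatectomy livers and at 0.0330 and 0 in the Cre-positive ones, and it was listed at 0 in all 4 sham libraries. Both Cre-negative hepatectomy libraries were thus above all others, at a signal near the low end of what was measured. Gata1, the GATA factor required for red cell, megakaryocyte, mast cell and eosinophil development, was above 0 in 3 libraries: 0.877 in Cre-positive hepatectomy replicate 2, 1.12 in Cre-negative hepatectomy replicate 2 and 0.328 in Cre-positive sham replicate 1. In both hepatectomy groups 1 of the 2 libraries was at 0, so the groups overlapped. The means of Rhag (0.503) and Gata1 (0.291) over the 8 libraries fell below the minimum of 1 for testing, and no fold change is given for them. The other 4 genes passed that filter.

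**Figure D1:**
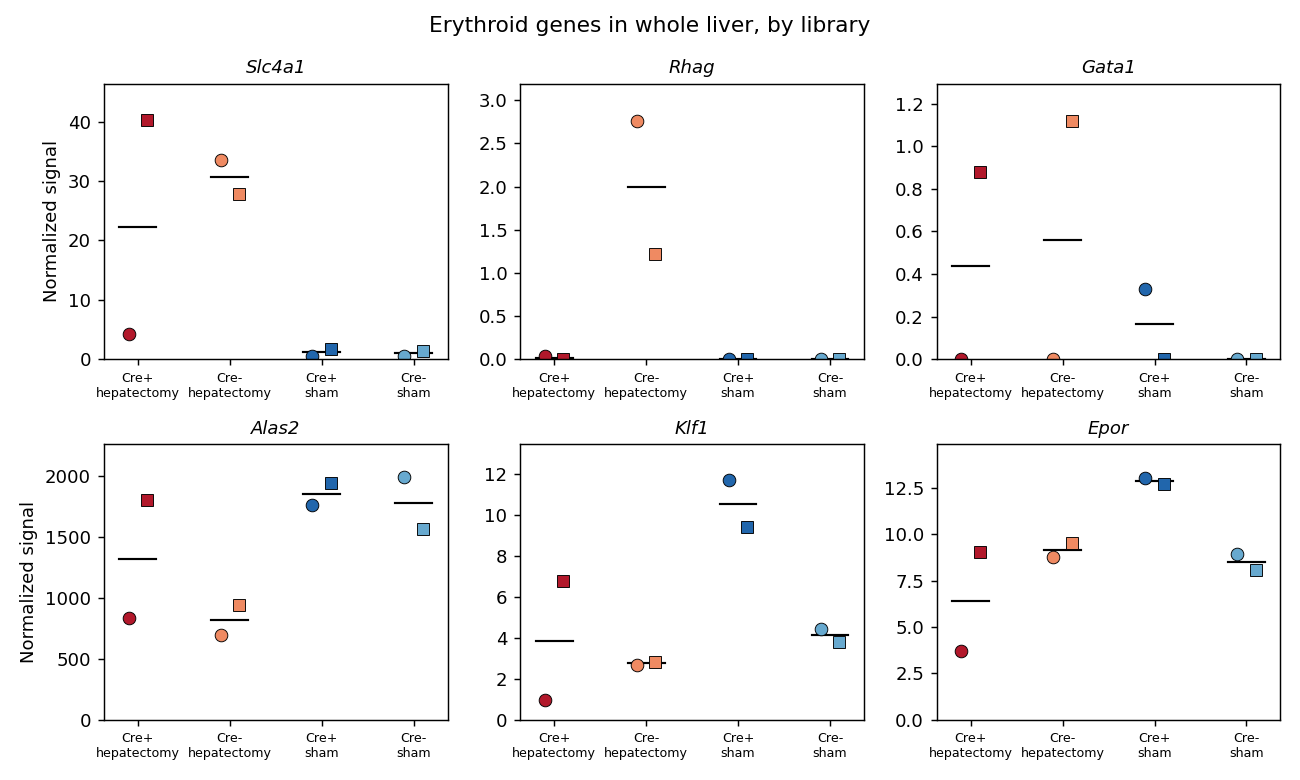
Normalized signal (vertical axes, linear, from 0, a separate scale for each gene) of 6 erythroid genes in 8 liver libraries. Circles are replicate 1, squares are replicate 2 and bars are group means. Slc4a1 lies between 4.14 and 40.2 after hepatectomy and at 1.68 or less after sham operation, whereas Alas2, Klf1 and Epor show overlapping groups.

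Alas2 encodes the erythroid 5-aminolevulinate synthase, the first enzyme of heme synthesis in red cell precursors (hepatocytes use the separate gene Alas1). Its signal was 835 and 1808 in Cre-positive and 696 and 939 in Cre-negative hepatectomy livers, against 1761 and 1947 in Cre-positive and 1990.3 and 1563 in Cre-negative sham livers. Of the hepatectomy libraries 3 lay below every sham library, and Cre-positive replicate 2 lay within the sham range. Means were 1322 ± 688 and 817 ± 172 after hepatectomy in Cre-positive and Cre-negative livers, against 1854 ± 132 and 1777 ± 302 after sham operation (SD, n = 2 each). The averaged log2 fold change was -0.86 (SE 0.27), with -0.59 in Cre-positive and -1.13 in Cre-negative livers. Alas2 thus ran opposite to Slc4a1 in sign in both genotypes, although without Cre-positive hepatectomy replicate 1 its Cre-positive value was -0.03.

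Klf1, the erythroid Krüppel-like factor that binds CACCC boxes of the beta-globin and other red cell genes, had a signal of 0.969 and 6.76 in Cre-positive and 2.66 and 2.84 in Cre-negative hepatectomy livers, against 11.7 and 9.43 in Cre-positive and 4.45 and 3.78 in Cre-negative sham livers. Within each genotype both hepatectomy libraries lay below both sham libraries, while over all 8 libraries the groups overlapped through Cre-positive hepatectomy replicate 2. The share of all genes separated like this within a genotype was not counted, so nothing is read from it. The averaged log2 fold change was -1.0 (SE 0.45), and it was -0.51 without Cre-positive hepatectomy replicate 1. Epor, the erythropoietin receptor, had 3.70 and 9.06 in Cre-positive and 8.78 and 9.53 in Cre-negative hepatectomy livers, against 13.0 and 12.7 in Cre-positive and 8.93 and 8.06 in Cre-negative sham livers. Both Cre-positive sham libraries were the highest of the 8 and Cre-positive hepatectomy replicate 1 the lowest. The averaged log2 fold change of Epor was -0.46 (SE 0.31), or -0.18 without that library. In Cre-negative livers the Epor value was 0.10 as deposited, but its sign turned with median-of-ratios scaling (-0.10), with quantile normalization (-0.66) and with a GC trend removed (-0.51), so no direction is given for it there.

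Against the background of all 16443 genes tested, 11.2% had all 4 hepatectomy libraries above all 4 sham libraries and 6.2% had all 4 below. Of the 4 erythroid genes tested, Slc4a1 was above in that sense and 0 were below. Since the choice of genes used this contrast, nothing is read from the counts. The 6 genes therefore did not share 1 pattern: Slc4a1 was higher in every hepatectomy library, Rhag was above the other groups in Cre-negative hepatectomy livers, and Alas2 and Klf1 were each lower in 3 of the 4 hepatectomy libraries than in any sham library. Over the 8 libraries, on the log2 scale, Pearson's r was 0.881 for Klf1 with Epor, 0.787 for Klf1 with Alas2 and 0.547 for Epor with Alas2. For Slc4a1 it was -0.319 with Klf1, -0.126 with Epor and -0.566 with Alas2. These are descriptions over libraries that share 4 groups and, in part, a GC trend.

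The promoters of Alas2, Klf1 and Epor are shown, genes whose r with each other was positive, from 0.547 to 0.881. Each holds letters that match a binding motif of the erythroid factors, as do the promoters of Rhag and Gata1, which are not shown. The choice rests on these same libraries, so no shared control is read from it. The sequences are from RefSeq on GRCm38.p6 and run from 250 bases before to 50 bases after the annotated start, 5′ to 3′ on the gene's strand. Capitals mark GATA motifs (GATAA or GATAG after an A or a T) and CACCC-type motifs (CCNCNCCC), searched on both strands, with overlapping matches run together. The Alas2 promoter lies at chrX:150547167-150547466 on the plus strand, the Klf1 promoter at chr8:84901732-84902031 on the plus strand and the Epor promoter at chr9:21963527-21963826 on the minus strand.
Alas2: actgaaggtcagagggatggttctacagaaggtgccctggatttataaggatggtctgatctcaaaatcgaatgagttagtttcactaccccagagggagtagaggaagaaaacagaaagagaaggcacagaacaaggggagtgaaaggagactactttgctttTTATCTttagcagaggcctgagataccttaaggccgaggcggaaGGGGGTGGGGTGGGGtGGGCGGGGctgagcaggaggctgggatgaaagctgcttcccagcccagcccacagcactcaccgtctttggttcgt
Klf1: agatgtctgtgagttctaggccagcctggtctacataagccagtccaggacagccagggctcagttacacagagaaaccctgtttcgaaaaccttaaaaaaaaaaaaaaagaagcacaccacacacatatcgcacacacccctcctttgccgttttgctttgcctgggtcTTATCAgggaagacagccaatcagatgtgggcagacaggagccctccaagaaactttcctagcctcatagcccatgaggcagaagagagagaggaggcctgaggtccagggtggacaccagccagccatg
Epor: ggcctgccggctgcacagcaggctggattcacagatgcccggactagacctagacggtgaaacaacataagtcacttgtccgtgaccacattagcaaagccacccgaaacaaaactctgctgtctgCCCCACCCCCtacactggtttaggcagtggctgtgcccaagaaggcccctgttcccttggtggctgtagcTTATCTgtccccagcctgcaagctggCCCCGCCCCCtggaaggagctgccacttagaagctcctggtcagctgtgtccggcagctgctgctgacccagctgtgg

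A GATA motif lay 86 bases upstream of the start in Alas2, 80 bases upstream in Klf1 and 54 bases upstream in Epor. The Alas2 and Epor windows also held 4 CACCC-type matches each, some of them overlapping, and the Klf1 window held 0. The Rhag window held 1 GATA motif, 31 bases upstream, and 0 CACCC-type matches, and the Gata1 window held 0 GATA motifs and 3 CACCC-type matches. Promoters were matched for 5 of the 7 genes, all except Slc4a1 and Ahsp. Both motifs are short and common: 29.8% of 32851 promoters of the same length held a GATA motif and 49.5% a CACCC-type motif. A match is a description of the letters and not evidence that a factor was bound in these livers, and genes with a GATA match in the window (Alas2 and Rhag among them) lay on both sides of their sham levels.

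Alas2 had 4 annotated isoforms, and these did not move alike. Alas2-001 was at 574 and 1206 in Cre-positive and 185 and 446 in Cre-negative hepatectomy livers, against 1235 and 1362 in Cre-positive and 1297 and 1044 in Cre-negative sham livers. It held 68.7% and 66.7% of the gene's signal in Cre-positive hepatectomy livers and 26.5% and 47.5% in Cre-negative ones, against 65.1% to 70.1% in the sham libraries. The share was thus lower in the Cre-negative hepatectomy livers than in any other group. Alas2-002 was at 259 and 602 in Cre-positive and 410 and 435 in Cre-negative hepatectomy livers, against 524 and 583 in Cre-positive and 691 and 517 in Cre-negative sham livers. Alas2-004 was at 97.4 and 57.4 in Cre-negative hepatectomy livers and at 1.68 or less in the other 6 libraries. Isoform values are estimates that divide reads between overlapping transcripts, and no test was made of them. Apex2, a DNA repair endonuclease gene, overlaps Alas2 on the opposite strand, and the labels do not say whether libraries kept strand. Apex2 was at 61.0 and 95.2 in Cre-positive and 78.8 and 70.2 in Cre-negative hepatectomy livers, against 53.9 and 47.2 in Cre-positive and 54.5 and 49.1 in Cre-negative sham livers, higher after hepatectomy where Alas2 was mostly lower. Its part in the Alas2 values was not tested.

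**Figure D2:**
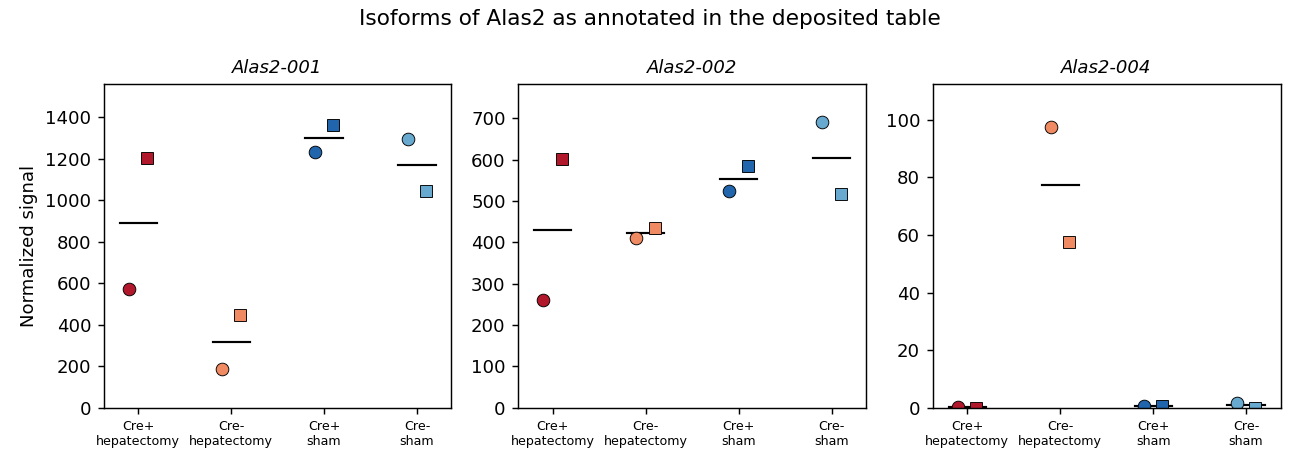
Normalized signal (vertical axes, linear, from 0, a separate scale for each isoform) of 3 Alas2 isoforms in 8 liver libraries. Circles are replicate 1, squares are replicate 2 and bars are group means. Alas2-004 is at 97.4 and 57.4 in the Cre-negative hepatectomy livers and at 1.68 or less elsewhere.

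Slc4a1-001 held most of the Slc4a1 signal in every library, at 2.40 and 36.4 in Cre-positive and 30.8 and 21.9 in Cre-negative hepatectomy livers, against 0.551 and 0.944 in Cre-positive and 0.487 and 1.42 in Cre-negative sham livers. It held 58.0% and 90.5% of the gene's signal in Cre-positive and 91.5% and 78.6% in Cre-negative hepatectomy livers. Slc4a1-003 lay between 1.32 and 2.67 in the hepatectomy libraries and at 0 in the sham libraries, and Slc4a1-005 was at 0 throughout. Klf1, Epor and Rhag had 1 annotated isoform each, and of the 3 of Gata1 only Gata1-001 was above 0.

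Loss of stellate cell Pdgfrb was the question of the design, so genotype was tested for the 4 genes that passed the filter. None of the 4 passed in any genotype contrast by limma, adjusted over all 16443 genes, and 0 had an unadjusted p under 0.05. Over all genes 0.00608% were called for genotype in sham livers, 0.0182% for genotype in hepatectomy livers and 0.0122% for the difference between genotypes in the hepatectomy response. In sham livers Klf1 had the highest of the 4 values, 1.17 on the log2 scale (95% interval -0.32 to 2.66, adjusted p = 1). Epor had 0.55 (-0.49 to 1.58), Alas2 had 0.07 (-0.83 to 0.97) and Slc4a1 had 0.10 (-2.03 to 2.23), each with adjusted p = 1. These intervals include differences of more than 1 log2 unit for Klf1, Epor and Slc4a1, so like levels are not shown.

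After hepatectomy, Cre-positive against Cre-negative livers gave -1.12 for Slc4a1 (95% interval -3.25 to 1.01, adjusted p = 0.511), and 0.38 without Cre-positive hepatectomy replicate 1. Alas2 gave 0.60 (-0.29 to 1.50, adjusted p = 0.412). Without Cre-positive hepatectomy replicate 1, Alas2 gave 1.16. In that fit the remaining Cre-positive hepatectomy library was assumed to vary like the other groups. Far more genes passed in it than with all libraries, so no call is read from it for Alas2. Epor gave -0.56 (adjusted p = 0.497), or -0.012 without Cre-positive hepatectomy replicate 1, and 0.21 with quantile normalization. Klf1 gave 0.06 (adjusted p = 0.965), and between -0.93 and 1.05 with 1 library left out, the highest of these without Cre-positive hepatectomy replicate 1 (adjusted p = 0.103). The difference of the hepatectomy response, Cre-positive minus Cre-negative, was -1.22 for Slc4a1 (-4.23 to 1.79, adjusted p = 0.795) and 0.53 for Alas2 (-0.73 to 1.80, adjusted p = 0.785). It was -1.11 for both Klf1 (adjusted p = 0.740) and Epor (adjusted p = 0.683). Without Cre-positive hepatectomy replicate 1 these differences were 0.28 for Slc4a1, 1.09 for Alas2, -0.12 for Klf1 and -0.56 for Epor, none past the threshold. No difference between genotypes was detectable for these genes with 2 libraries a group.

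Hepatectomy libraries differed in how signal followed GC content. Against the sham mean, tested genes within 2.5 percentage points of the GC content of Klf1 (61.0%) had a median log2 difference of -0.14 and 0.72 in the Cre-positive hepatectomy replicates 1 and 2, and 0.73 and 0.48 in the Cre-negative ones. Klf1 itself stood at -1.96 and 0.02 in the same Cre-positive libraries and at -1.07 and -1.0 in the Cre-negative ones, below the genes of like GC in all 4. Slc4a1 (GC 56.7%) stood at 1.39 and 4.39 in the Cre-positive and at 4.14 and 3.87 in the Cre-negative hepatectomy libraries, where genes of like GC had medians of -0.10, 0.62, 0.53 and 0.32 in that order. With the GC trend of each library removed, an alternative chosen after seeing the data, the averaged fold change was 3.10 for Slc4a1, -0.98 for Alas2, -1.47 for Klf1 and -0.91 for Epor, with the signs of the values as deposited.

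The other genes of red cell formation were taken as 6 lists with 83 genes measured, of which 73 passed the filter on low values. Averaged over genotypes, 4 of the 73 rose after hepatectomy (5.48%, against 3.64% of all genes tested) and 2 fell (against 0.845%), by limma with adjustment over all genes. The median log2 fold change was 0.21 over the 73 and 0.12 over all genes. With no filter on low values 0 rose and 2 fell, with median-of-ratios scaling 2 rose and 2 fell, and with the GC trend removed 3 rose and 6 fell. The genes called were 1 globin, 1 regulator and 4 enzymes or enzyme-like proteins, so most of the pathway did not pass on 4 libraries against 4.

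Globin genes were higher after hepatectomy in every library. Hba-a2, an adult alpha-globin gene, had a signal of 2596 and 11510 in Cre-positive and 5557 and 9614 in Cre-negative hepatectomy livers, against 688 and 1573 in Cre-positive and 1366 and 1530.0 in Cre-negative sham livers. Hba-a2 rose, with a log2 fold change of 2.36 (SE 0.50, adjusted p = 0.0461). Hba-a1 had 3377 and 17993 in Cre-positive and 6586 and 11360.0 in Cre-negative hepatectomy livers, against 905 and 2323 in Cre-positive and 1972 and 2235 in Cre-negative sham livers, and did not pass (2.23, adjusted p = 0.0732). The adult beta-globin genes Hbb-b1 (1.86, adjusted p = 0.102) and Hbb-b2 (1.86, adjusted p = 0.107) did not pass either. Without Cre-positive hepatectomy replicate 1 the values were 2.90 for Hba-a2, 2.84 for Hba-a1, 2.49 for Hbb-b1 and 2.50 for Hbb-b2. All 4 hepatectomy libraries lay above all 4 sham libraries for each of these 4 genes, as for 11.2% of all genes tested. Cre-positive hepatectomy replicate 2 was the highest and replicate 1 the lowest of the hepatectomy libraries. Near-identical copies may have shared reads within the alpha pair and within the beta pair, so the split between copies is uncertain. The embryonic globin genes Hbb-y, Hbb-bh1 and Hba-x were listed at 0 in all 8 libraries.

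**Figure D3:**
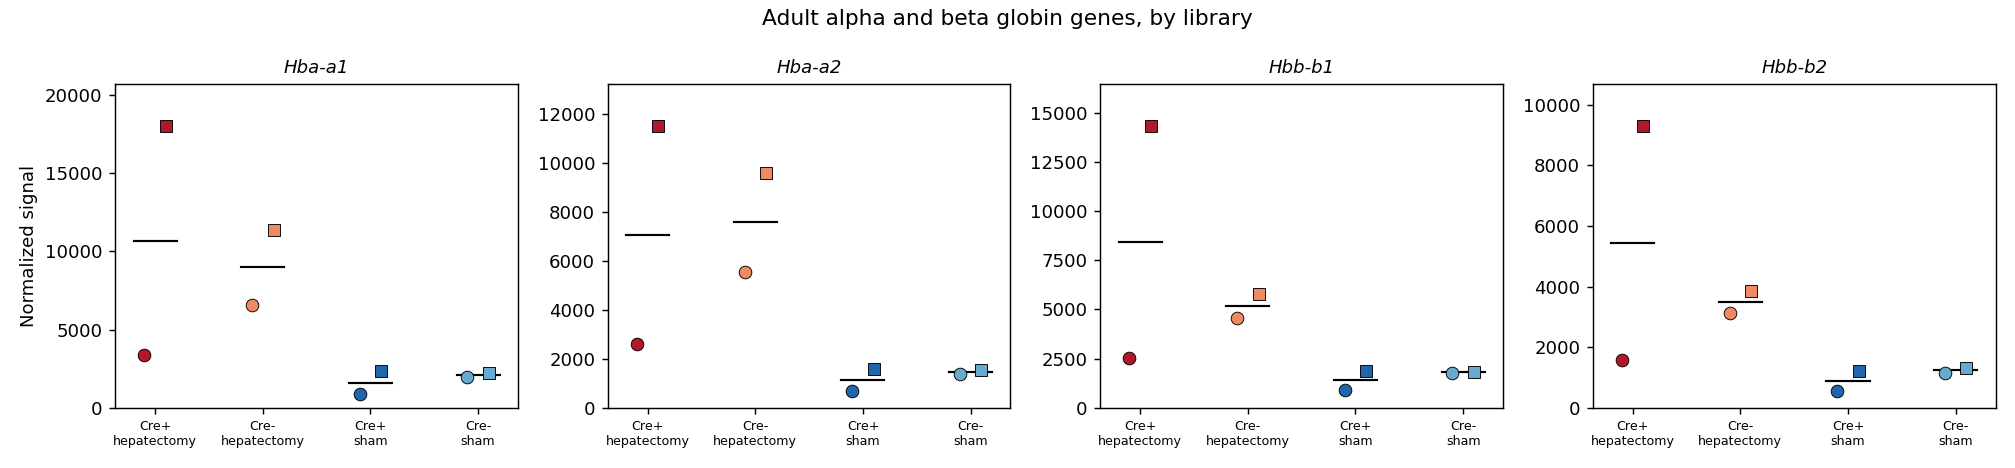
Normalized signal (vertical axes, linear, from 0, a separate scale for each gene) of 4 adult globin genes in 8 liver libraries. Circles are replicate 1, squares are replicate 2 and bars are group means. Hba-a2 lies between 2596 and 11510 after hepatectomy and between 688 and 1573 after sham operation, with the same separation for the other 3 genes.

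Among regulators, E2f2, a cell cycle factor needed for the terminal divisions of mouse erythroblasts, rose by 2.18 (SE 0.42, adjusted p = 0.0358). It was at 11.7 and 40.5 in Cre-positive and 21.8 and 15.3 in Cre-negative hepatectomy livers, against 1.85 and 3.40 in Cre-positive and 5.55 and 4.73 in Cre-negative sham livers. E2f2 is also used by other dividing cells, and all 10 genes of a dividing cell list rose in the same contrast (median 4.46). That list summed to 1447 and 4798 in Cre-positive and 1377 and 3375 in Cre-negative hepatectomy livers, against 74.7 and 83.3 in Cre-positive and 91.2 and 114.9 in Cre-negative sham livers. Its part in the erythroid values was not tested.

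Of 16 red cell enzymes 2 rose and 2 fell (background 3.64% and 0.845%). Car2, the carbonic anhydrase II of red cells and other cells, was at 78.6 and 71.3 in Cre-positive and 111.2 and 64.1 in Cre-negative hepatectomy livers, against 29.3 and 32.4 in Cre-positive and 19.4 and 27.7 in Cre-negative sham livers. It rose by 1.54 (SE 0.25, adjusted p = 0.0229), while Car1, the carbonic anhydrase I gene, fell by 1.88 (SE 0.23, adjusted p = 0.00743). Car1 was at 13.2 and 14.8 in Cre-positive and 70.5 and 53.8 in Cre-negative hepatectomy livers, against 107.7 and 122.0 in Cre-positive and 135.7 and 87.9 in Cre-negative sham livers. Pklr, whose separate promoters give the pyruvate kinases of liver and of red cells, fell by 1.67 (SE 0.18, adjusted p = 0.00509), to 545 and 685 in Cre-positive and 226 and 325 in Cre-negative hepatectomy livers, against 1469 and 1369 in Cre-positive and 1184 and 1177 in Cre-negative sham livers. Ube2l6, the ubiquitin and ISG15 conjugating enzyme, is induced in late erythroid cells and by interferon, and rose by 1.25 (SE 0.21, adjusted p = 0.0244). It was at 1445 and 1151 in Cre-positive and 404 and 681 in Cre-negative hepatectomy livers, against 351 and 309 in Cre-positive and 342 and 381 in Cre-negative sham livers.

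Heme synthesis genes did not pass in either direction, 0 of 11 by limma, with 2 at an unadjusted p under 0.05 (background 23.8%). Those 2 were Alad, the porphobilinogen synthase (0.72, adjusted p = 0.0831), and Fech, which inserts iron into heme (-0.57, adjusted p = 0.0816), of opposite sign. Without Cre-positive hepatectomy replicate 1, Alad gave 0.75 and Fech -0.58. Hepatocytes make heme too, so this list is not particular to red cells. Of the 19 membrane genes 0 passed, with 7 at an unadjusted p under 0.05 (background 23.8%) and a median of 0.62. Epb4.1 for protein 4.1 (-0.43, adjusted p = 0.136) and Cd47 (0.16, adjusted p = 0.705), named for their mean signal within the list, are made by many other cells. Of the 12 genes of erythropoietin and iron signalling 0 passed, and the median was -0.29. At an unadjusted p under 0.05 were 3 of the 12 (background 23.8%), named here after their values were seen. They were Pim1 (-1.55, adjusted p = 0.0513), Kitl (-1.04, adjusted p = 0.180) and Fam132b (1.23, adjusted p = 0.139). Trfr2, the transferrin receptor 2 of hepatocytes and erythroid cells, gave -0.23 (adjusted p = 0.442), and Stat5b, which acts below Epor, gave -0.41 (adjusted p = 0.307). Epo, the hormone gene itself, was at 0.876 in Cre-positive hepatectomy replicate 2 and listed at 0 in the other 7 libraries.

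Within a genotype fewer pathway genes passed. In Cre-positive livers Ube2l6 rose and Car1 fell, 1 of 73 each way (background 0.845% and 0.0973%), with 12 (16.4%) at an unadjusted p under 0.05, against 13.5% of all genes. In Cre-negative livers 0 rose (background 1.01%) and Pklr fell (background 0.103%), with 21 (28.8%) at an unadjusted p under 0.05, against 21.3% of all genes. Between genotypes 0 of 73 passed in sham livers, in hepatectomy livers or in the difference of responses by limma, with 0, 12 (16.4%) and 5 (6.85%) at an unadjusted p under 0.05. Over all genes those shares were 0.888%, 18.3% and 8.09%.

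The count of pathway genes rested on 1 library more than on any other. Without Cre-positive hepatectomy replicate 1, 27 of 73 rose (37%, against 18.5% of all genes) and 9 fell (12.3%, against 14.2%), in a fit that left 1 Cre-positive hepatectomy library, assumed to vary like the other groups. Leaving out any 1 of the 4 sham libraries instead left 0 rising and 1 or 2 falling, and leaving out Cre-negative hepatectomy replicate 1 left 1 rising and 2 falling. In the fit without Cre-positive hepatectomy replicate 1, all 4 adult globins passed as higher. So did 9 of 19 membrane genes (Epb4.1 passed as lower), among them Ank1 for ankyrin 1, which ties band 3 to the membrane skeleton and is named here after its values were seen. Of 11 regulators 4 passed as higher (E2f2, Myb, Nfe2 and Trim10), and of 11 heme genes 3 passed as higher and 1, Fech, as lower. Of 16 enzymes 6 passed as higher and 4 as lower, and of 12 signalling genes 1 as higher, Fam132b for the erythroid hormone erythroferrone, and 3 as lower, Jak2, Kitl and Pim1. Of the 27 higher genes 8, among them Myb, Trim10, Fam132b and 5 of the 9 membrane genes, had a sham mean below the filter's minimum of 1 and so were tested only through the hepatectomy libraries. They had to be higher there, so these calls are not support for a rise of the pathway. The genes left without them have no like background here. The share over all genes includes genes that passed the filter in the same way.

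Ank1 differed between the hepatectomy libraries. It was at 0.274 and 14.4 in Cre-positive and 26.7 and 12.3 in Cre-negative hepatectomy livers, against 2.38 and 0.819 in Cre-positive and 2.74 and 3.51 in Cre-negative sham livers. Cre-positive hepatectomy replicate 1 lay below all 4 sham libraries and the other 3 hepatectomy libraries lay above every sham library. Averaged over genotypes with all 4 hepatectomy libraries, Ank1 had 1.53 (adjusted p = 0.261) and did not pass.

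By library, the median log2 difference of the 73 pathway genes from the sham mean was -0.20 and 0.58 in the Cre-positive hepatectomy replicates 1 and 2, and 0.28 and 0.32 in the Cre-negative ones. The same medians over all tested genes were -0.05, 0.17, 0.28 and 0.15. Globins had 0.83 and 3.23 in the Cre-positive and 1.78 and 2.32 in the Cre-negative libraries, membrane genes -0.33 and 1.37, and 1.43 and 0.82. Globin signal was thus above sham in Cre-positive hepatectomy replicate 1 too, where the membrane list was not.

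**Figure D4:**
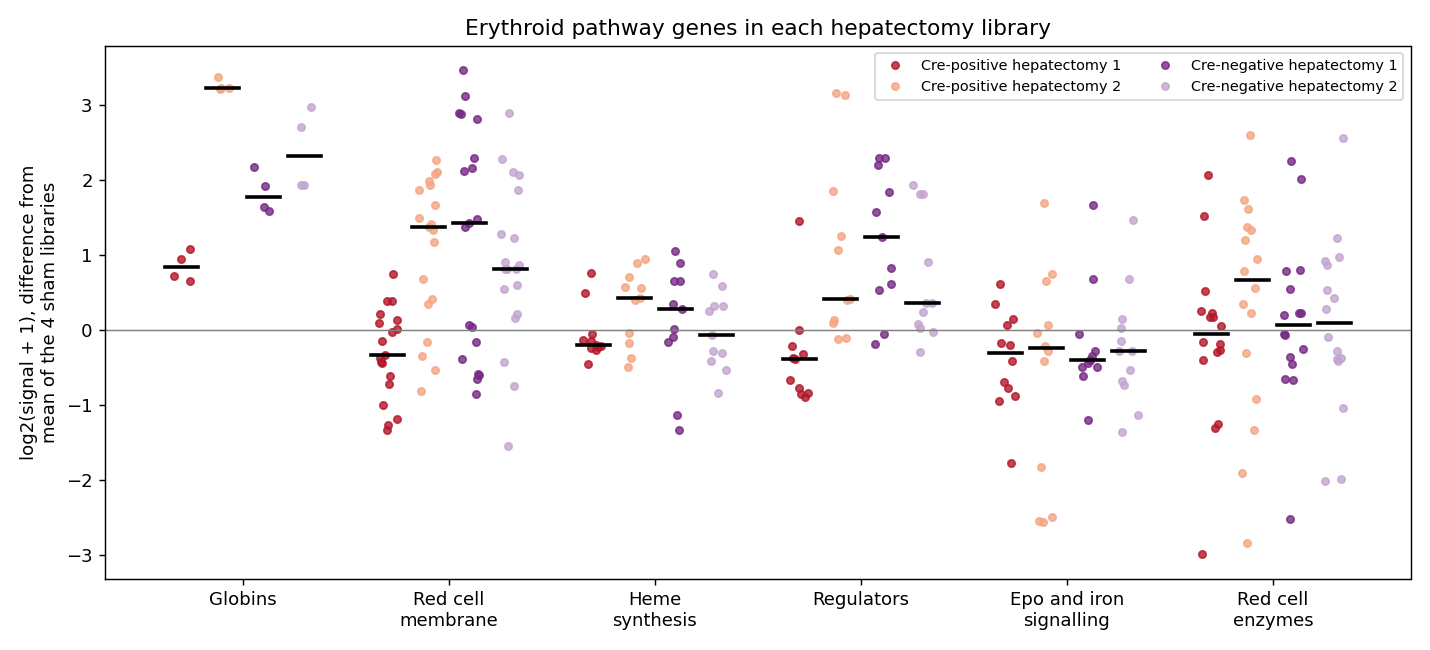
Difference of log2(signal + 1) from the mean of the 4 sham libraries (vertical axis) for 73 erythroid pathway genes in 6 lists, in each of the 4 hepatectomy libraries. Each point is a gene and each black bar the median of a list in a library. Membrane genes have medians of -0.33 in Cre-positive hepatectomy replicate 1 and 0.82 to 1.43 in the other 3 libraries.

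Markers of other blood cells were measured beside these genes. Of 10 tested genes of the neutrophil lineage 1 rose (background 3.64%), Prtn3 for the granule protease proteinase 3 (3.61, SE 0.69, adjusted p = 0.0352). At an unadjusted p under 0.05 were 4 of the 10 (background 23.8%), with Camp at 2.62, Ltf at 1.48 and Ngp at 1.23 beside Prtn3. Camp and Ltf had a sham mean below 1 and so were tested only through the hepatectomy libraries, where they had to be higher. Of the 10 genes 7 were positive, while S100a8 (-0.03), S100a9 (-0.08) and Mmp8 (-0.84) had the opposite sign. The list summed to 557 and 812 in Cre-positive and 633 and 409 in Cre-negative hepatectomy livers, against 589 and 124 in Cre-positive and 726 and 465 in Cre-negative sham livers. Of 6 tested megakaryocyte and platelet genes 0 passed (0 at an unadjusted p under 0.05), with sums of 178 and 241 in Cre-positive and 405 and 219 in Cre-negative hepatectomy livers, against 252 and 255 in Cre-positive and 222 and 295 in Cre-negative sham livers. Of 3 tested mast cell, basophil and eosinophil genes 0 passed (0 at an unadjusted p under 0.05), and the defining genes Fcer1a and Epx were listed at 0 in all libraries. These lists bear on Gata1, which megakaryocytes, mast cells and eosinophils share, and their part in its values was not tested.

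Likeness over the 8 libraries was taken to the mean standardized log2 level of the 4 tested genes, by Pearson's r. The most alike genes were Idh3g (0.937), 5033411D12Rik (0.933), Ccbp2 (0.927) and Atg4d (0.922), out of 16443. Idh3g, a subunit of mitochondrial isocitrate dehydrogenase, was at 714 and 1057 in Cre-positive and 883 and 887 in Cre-negative hepatectomy livers, against 991 and 1043 in Cre-positive and 919 and 993 in Cre-negative sham livers. Its lowest library was Cre-positive hepatectomy replicate 1, the lowest also for Klf1 and Epor. With 8 libraries and this many genes, high values of r arise in number, and these are descriptions only.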

How the data were processed

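Whole liver RNA was sequenced in 8 libraries, grouped by their titles. The deposited files hold a normalized signal of each gene and isoform, made by the authors. The submitters' processing notes name TopHat, Cufflinks and the builds mm9 and NCBIM37, with no versions. The sources used here do not give its normalization. The signal is not a count, and sequencing depth is unknown, so no counting interval or floor is given. The sorted isoform values were close across libraries: at rank 5000 they lay between 185 and 195, and at rank 1000 between 1037 and 1262.

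From these values, log2(signal + 1) was fitted with limma 3.58.1 in R 4.3.3, as 1 mean for each of the 4 groups with an intensity trend in the prior variance (4 residual and 3.25 prior degrees of freedom). Of 34465 genes, 16443 had a mean signal of at least 1 and were tested. P-values, two-sided, were adjusted by Benjamini-Hochberg over all tested genes, with a threshold of 0.05. The fit was tested on simulated data with known changes. Alternatives were a pseudocount of 0.1, no filter, median-of-ratios scaling, quantile normalization, no intensity trend, fits of 1 genotype alone, leaving out each library, and, added after seeing the data, removal of each library's GC trend (96.6% of tested genes had a GC value).

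The members, the gene lists and the tests were chosen with earlier results of these data known. Besides the members and Pdgfrb, the text names, from each of the 6 lists, up to 4 genes past the threshold in the averaged contrast by smallest adjusted p, or otherwise up to 2 of the highest mean, and other genes as values or as chosen after they were seen. Older gene symbols are used where the files have them, such as Trfr2 for Tfr2. Hbb-bs, Hbb-bt, Abcb10 and Zfpm1 are not analysed here.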

Additional observations from a re-analysis of the deposited data

How the results depend on the processing

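Without a filter on low values, 405 genes were called for hepatectomy averaged over genotypes (738 with it), with 2 pathway genes, both falling (6 with it, 4 of them rising), 103 in Cre-negative livers (183) and 7 in Cre-positive livers (155). It gave 0 for genotype in sham (1), 22 for genotype in hepatectomy (3) and 1 for the difference of responses (2), which a pseudocount of 0.1 also left at 1. Cre-negative livers gave 62 with median-of-ratios scaling, 79 with quantile normalization and 63 when fitted alone. Cre-positive livers gave 99 with quantile normalization and 0 when fitted alone (1493 at an unadjusted p under 0.05 by limma). With no intensity trend, genotype in hepatectomy gave 7. Removing the GC trend, chosen after seeing the data, gave 1145 averaged, 506 in Cre-negative and 322 in Cre-positive livers, and 0 for genotype in sham and for the difference. Leaving out 1 library at a time gave 134 to 5369 genes averaged, 1 to 36 pathway genes, 0 to 1657 in Cre-negative and 1 to 3459 in Cre-positive livers, 0 to 19 for genotype in sham, 0 to 2142 for genotype in hepatectomy and 0 to 732 for the difference. The highest of these were all without Cre-positive hepatectomy replicate 1, and for genotype in sham also without replicate 2.

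For single genes, genotype in hepatectomy turned to -0.072 for Klf1 with the pseudocount of 0.1 and to 0.21 for Epor with quantile normalization. Leaving out 1 library moved it between -0.93 and 1.05 for Klf1 and between -2.62 and 0.38 for Slc4a1. Genotype in sham ranged from -0.29 to 0.50 for Slc4a1 and from -0.10 to 0.24 for Alas2, and the difference of responses from -2.72 to 0.28 for Slc4a1 and from -0.023 to 1.09 for Alas2. In all, 157 of the values of the 4 genes for genotype and the difference kept their direction and side of the threshold, and 10 reversed. The 1 left was Alas2 in hepatectomy without Cre-positive hepatectomy replicate 1, a fit from which no call is read. The values of the 4 genes for hepatectomy against sham, not tested, moved by less than the spread between replicates in 164 cases and by more in 12. Scaling moved the median of all genes for the averaged contrast, 0.12 as deposited, to -0.03 with either method. The cause of these changes was not tested. No paired analysis was possible because the labels give no shared replicate numbers. With depth unknown, values near 0, as for Rhag and Gata1, carry no known precision.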

Other observations

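Genes of other resident and blood cells gave a mixed picture beside the erythroid genes. The 11 macrophage genes are a list that includes the Kupffer cells and the island macrophages that host erythroblasts. Of these genes 0 passed in the averaged hepatectomy contrast by limma, with 3 at an unadjusted p under 0.05 (background 23.8%). Their sums were 4621 and 3597 in Cre-positive and 2444 and 1955 in Cre-negative hepatectomy livers, against 3353 and 2871 in Cre-positive and 2593 and 3374 in Cre-negative sham livers. Emr1, the gene of the macrophage antigen F4/80, was at 328 and 348 in Cre-positive and 111 and 125 in Cre-negative hepatectomy livers, against 250 and 229 in Cre-positive and 166 and 272 in Cre-negative sham livers. It is named here after its values were seen. For genotype in hepatectomy livers 7 of the 11 genes were positive, Emr1 at 1.51, and 0 passed by limma. Spic (-1.56), Vcam1 (-0.44), Cd163 (-0.27) and Hmox1 (-0.21) went the other way. In the averaged contrast 0 of 9 stem and progenitor genes passed (4 at an unadjusted p under 0.05, background 23.8%). Those were Ly6a (1.67), Myb (1.44) and Meis1 (0.87), and Hlf with the opposite sign (-0.96). Myb had a sham mean below 1, so it was tested only through the hepatectomy libraries. Of 8 B lymphocyte genes 0 passed in the averaged contrast (1 at an unadjusted p under 0.05, Pax5). Within Cre-negative livers Pax5 rose by 3.33 (adjusted p = 0.0411 by limma, background 1.01%). Its signal was 0.140 and 0 in Cre-positive and 12.4 and 6.59 in Cre-negative hepatectomy livers. Its sham mean was below 1, so it was tested only through the hepatectomy libraries.

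Genes alike to single members were looked up after the values were seen. Over the 8 libraries the highest Pearson's r with Slc4a1 was 0.997, for Sgta, a co-chaperone gene, at 544 and 742 in Cre-positive and 727 and 715 in Cre-negative hepatectomy livers, against 489 and 516 in Cre-positive and 478 and 502 in Cre-negative sham livers. The gene most like Alas2 was Cdk18 (0.979), followed by Acad10 (0.9775) and Serpinf1 (0.976), with Uroc1 (0.970) also among the 10 most alike. Serpinf1 was at 3438 and 5606 in Cre-positive and 2776 and 3897 in Cre-negative hepatectomy livers. Its sham values were 5607 and 5898 in Cre-positive and 6095 and 6019 in Cre-negative livers. Cebpe, a transcription factor gene of granulocyte maturation, was also among the 10 most alike (0.974), at 0.0345 and 9.41 in Cre-positive and 0 and 0.467 in Cre-negative hepatectomy livers, against 13.5 and 12.2 in Cre-positive and 9.30 and 9.81 in Cre-negative sham livers. Like Alas2, Cebpe lay within or near the sham range in Cre-positive hepatectomy replicate 2 and below it in the other 3 hepatectomy libraries. No cell type is read from these genes.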
